A study of Arabidopsis thaliana with 12 samples.

Results

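The nuclear genes of the mitochondrial respiratory chain examined here were 43 of the 20233 genes in the deposited table. They were taken as a list of loci covering nuclear-encoded subunits of complexes I to V, the gamma carbonic anhydrases of complex I, cytochrome c, the ADP/ATP carriers and the VDAC porins. Each of the 43 had a row in the table and averaged 1 FPKM or more, so each was tested. AT5G25450 and AAC3 averaged under 1 FPKM in mock and passed that limit through the treated groups.

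RNA came from seedlings of Arabidopsis thaliana aged 2 to 3 weeks, collected 6 h after vacuum infiltration, with leaf given as the tissue. The 4 groups of 3 libraries were mock, 10 µM valinomycin (a potassium ionophore), Pseudomonas syringae pv. tomato DC3000, a bacterial leaf pathogen called DC3000 below, and valinomycin together with DC3000. The labels do not say whether the 3 samples of a group came from separate infiltrations, so p-values measure the spread between these samples only.

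The respiratory chain passes electrons from NADH through complex I, or from succinate through complex II, to ubiquinone, then through complex III and cytochrome c to complex IV, where oxygen is reduced. Complexes I, III and IV pump protons across the inner mitochondrial membrane, complex V (ATP synthase) uses the gradient to make ATP, ADP/ATP carriers exchange that ATP for cytosolic ADP, and VDAC porins let small molecules through the outer membrane. In plants complex I also carries a domain of gamma carbonic anhydrases, the peptidase that cuts off mitochondrial targeting sequences forms part of complex III, and many subunits are encoded by several genes.

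The 12 libraries summed to 1057472 to 1350272 FPKM (fragments per kilobase of transcript, scaled to the depth of the library, a unit inferred from the values). The number of fragments per library is not given, so no counting error can be attached to low values. Chloroplast genes took 31.1% to 42.7% of the total, and median-of-ratios size factors were lowest in mock replicate 3 (0.742) and highest in valinomycin replicate 2 (1.14). Valinomycin replicate 3 stood apart, with correlations to its 2 partners of 0.962 and 0.976 on the log2 scale, where the pairs of the other groups had 0.982 to 0.992. The 5 leaf mesophyll markers were all present and summed to 31000 to 33400 FPKM in mock, 18500 to 21000 after valinomycin, 18600 to 21800 after DC3000 and 13300 to 15200 after both. That sum is carried by its most abundant genes, and LHCA1 in the list had differences of 0.18 with valinomycin and 0.34 with DC3000. Root markers (3 of 5, the root hair genes RHD6 and EXPA7 not in the table) summed to 132 to 207 FPKM in mock and 167 to 222 after valinomycin. With DC3000 the root sum was 211 to 340, above mock without overlap, and with both treatments it was 169 to 214. The 4 guard cell markers summed to 18 to 27.6 FPKM in mock and 26.1 to 28.5 after valinomycin. Their sum was 26.1 to 34.2 after DC3000 and 24.2 to 25.6 after both. Phloem and xylem markers (6 of 6) summed to 63.1 to 74 FPKM in mock and 36.5 to 46.3 with both treatments. Their differences from mock with both were -1.80 for XCP1, -0.88 for XCP2, -0.45 for CESA4, -0.28 for SUC2, -0.10 for IRX3 and -0.08 for IRX1. Meristem and epidermis markers (4 of 6, CLV3 and WUS not in the table) summed to 35.1 to 58.1 in mock and 27.1 to 30 with DC3000. Members of this last list did not move together, with DC3000 differences of -1.01 for ATML1, -0.72 for PDF2, -0.19 for KNAT1 and 0.445 for STM. The part of these marker changes in the results was not tested, and in whole tissue fewer cells of a type and less RNA per cell cannot be told apart.

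Most respiratory chain genes stayed close to their mock level while a few members of multigene families moved strongly. The second gene for the QCR7 subunit of complex III (AT5G25450), the ADP/ATP carriers AAC2 and AAC3 and the porin VDAC3 rose with valinomycin, whether or not the bacterium was present. The carrier with the highest level, AAC1, fell in the same libraries. With DC3000 the rises on the log2(FPKM + 1) scale were led by AAC2, VDAC2, GAMMA CA1, AT5G25450 and VDAC1. By the ratio of FPKM means AT5G25450 came first, at 4.87 times mock, and AAC2 next, at 3.64 times. AAC2 and AT5G25450 rose less than with valinomycin. Of the genes called higher with valinomycin, AAC3 and VDAC3 were not called with DC3000. Both comparisons used the same mock libraries, so their calls are not independent.

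Differences were taken on the log2(FPKM + 1) scale, which understates changes of low genes, and calls required p under 0.05 after Benjamini-Hochberg adjustment over the 18048 genes tested. Because small differences moved with the scaling of the libraries, each call was repeated under 3 other scalings, and a call lost under any of them is described here as scaling-dependent. With valinomycin 10 members were called higher, where 38.5% of all genes were, and 3 lower, against 13.8% of all genes. Of these, 5 higher and 3 lower calls held under all 4 scalings, as did 26.6% and 13.8% of all genes. With DC3000 18 members were called higher, against 31.6% of all genes, and 1 lower, against 17.2%. Of these, 8 higher calls and the lower call held under all 4 scalings, as did 23.9% and 17.1% of all genes. The 18 became 9 without mock replicate 3, 9 without DC3000 replicate 1 and 8 without DC3000 replicate 2, and the single lower call became 0 without mock replicate 1 or 2 and 2 without mock replicate 3 or valinomycin replicate 1 or 3. With both treatments 12 members were called higher, against 37.2% of all genes, and 6 lower, against 23.1%. Of these, 11 higher and 6 lower calls held under all 4 scalings, as did 32.4% and 23.1% of all genes, and the 6 became 10 without mock replicate 3.

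Most members lay near their mock level. With valinomycin 36 of 43 members lay within 0.5 of mock on the log2 scale, against 53.2% of all genes tested. The corresponding figures were 33 members against 54.8% of genes with DC3000 and 28 members against 45.5% with both treatments. The median difference of the members was 0.06 after valinomycin, 0.26 after DC3000 and 0.12 after both, and the medians over all genes were 0.27, 0.18 and 0.17. With median-of-ratios size factors the median over all genes in valinomycin against mock moved from 0.27 to 0.01 and that of the members from 0.06 to -0.24, so that 5 members were called higher, against 26.7% of all genes, and 20 lower, against 27%.

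**Figure D1:**
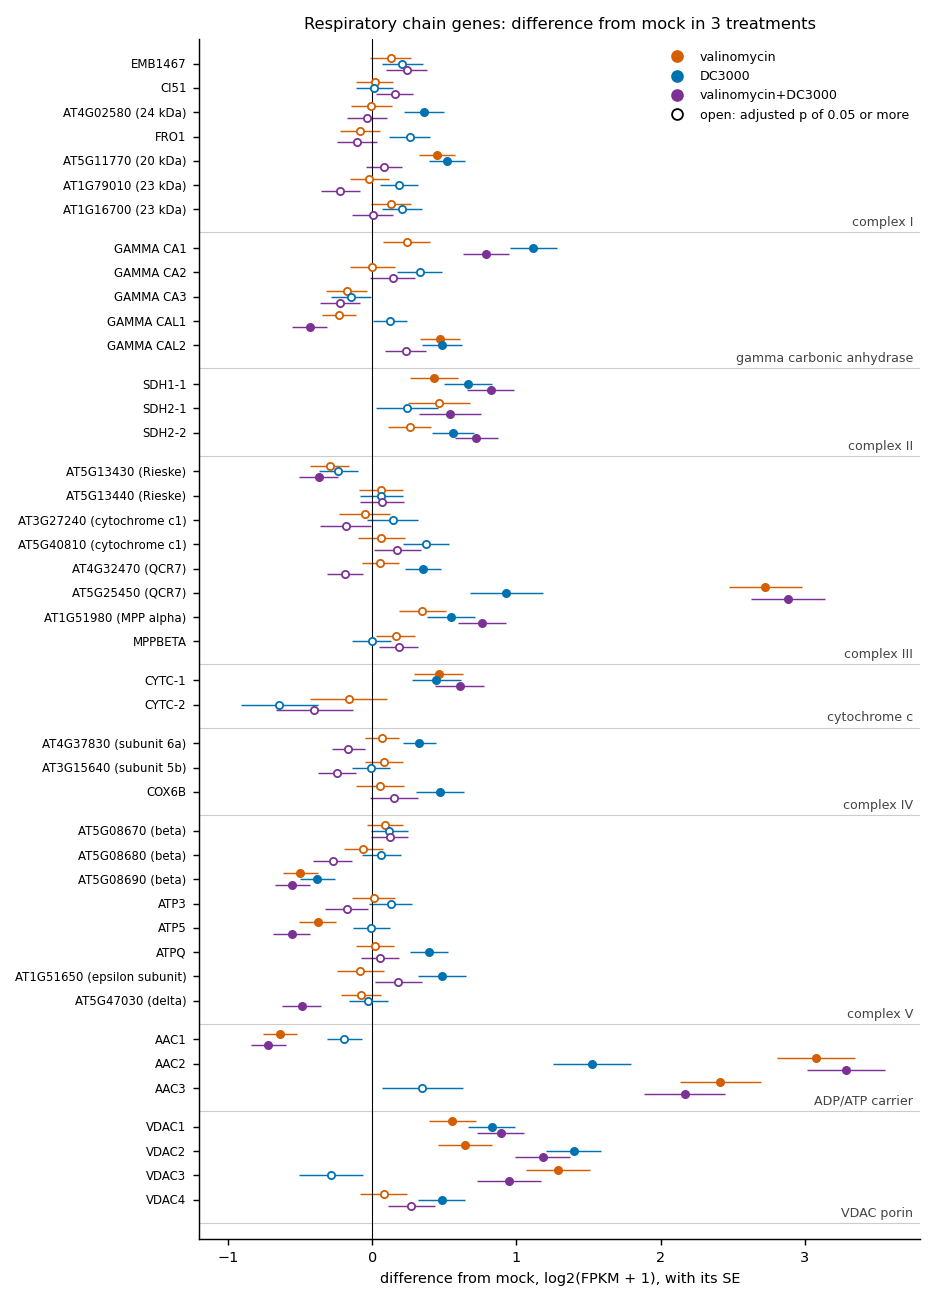
Difference from mock of each of the 43 genes on the log2(FPKM + 1) scale (x axis) for valinomycin, DC3000 and both treatments, with bars of 1 SE from the limma fit and filled points for adjusted p under 0.05. Most points lie within 0.5 of 0, and AT5G25450, AAC2 and AAC3 lie above 2 with valinomycin and with both treatments.

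Complex I, the entry point for electrons from NADH, was represented by 7 subunits of its hydrophilic arm. None was called with both treatments, where 37.2% of all genes were called higher and 23.1% lower. This depended on scaling. With median-of-ratios size factors the subunits called lower with both included AT1G79010 (-0.41, adjusted p = 0.000634) and FRO1 (-0.30, adjusted p = 0.0128). AT5G11770, an iron-sulphur subunit next to the ubiquinone site, had 43.5, 46.1 and 40.6 FPKM in mock, 63.9, 61.6 and 53.6 with valinomycin, 61.5, 67.7 and 58.8 with DC3000, and 48.6, 46.7 and 42.6 with both. Each single treatment lay above mock in all 3 libraries, and the libraries with both treatments overlapped mock. The difference was 0.45 ± 0.13 (SE) with valinomycin (adjusted p = 0.00819, scaling-dependent), 0.52 ± 0.13 with DC3000 (adjusted p = 0.00344) and 0.08 ± 0.13 with both (adjusted p = 0.603). The interaction, which is the valinomycin difference with DC3000 minus that without, was -0.89 ± 0.18 (adjusted p = 0.00289) and was called under all 4 scalings.

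The iron-sulphur subunit known as TYKY is encoded by a pair of genes. AT1G79010, the more abundant and the highest of the 7, had 73.2, 84.2 and 60.9 FPKM in mock, 66.8, 72.7 and 74.1 with valinomycin, 82.9, 86.5 and 77.4 with DC3000, and 63.6, 59.5 and 62.4 with both. AT1G16700 had 28.2, 33.6 and 25.4 in mock, 34.6, 31.6 and 29.2 with valinomycin, 36.7, 34.3 and 29.8 with DC3000, and 27.8, 31.1 and 28.1 with both. Neither gene was called against mock, and AT1G79010 was lower with both treatments than with DC3000 by a log2 difference of -0.41 ± 0.13 (adjusted p = 0.0358, scaling-dependent). The other 4 subunits, EMB1467 (the largest iron-sulphur subunit), CI51 (which binds NADH), AT4G02580 (its iron-sulphur partner) and FRO1 (an accessory subunit), ranged from 22.0 FPKM, the lowest of EMB1467, to 76.8, the highest of CI51. Among them AT4G02580 was called higher with DC3000, by 0.36 ± 0.14 (adjusted p = 0.0465, scaling-dependent).

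The gamma carbonic anhydrases and their like proteins form a plant-specific domain of complex I that faces the matrix. GAMMA CA1 (AT1G19580) had 13.2, 14.9 and 10.2 FPKM in mock, 13.9, 16.6 and 14.9 with valinomycin, 32.3, 31 and 23.1 with DC3000, and 22.8, 22 and 22.9 with both. All libraries with the bacterium lay above all those without it. The difference from mock was 1.12 ± 0.16 with DC3000 (adjusted p = 5.77e-05) and 0.79 ± 0.16 with both (adjusted p = 0.000730), and 0.24 ± 0.16 with valinomycin (adjusted p = 0.226).

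GAMMA CA2 and GAMMA CA3 encode the closest relatives of GAMMA CA1. GAMMA CA2 (AT1G47260) had 26, 31.1 and 19.6 FPKM in mock, 23.7, 25.4 and 26.4 with valinomycin, 33.9, 33.9 and 27.9 with DC3000, and 28.1, 27.4 and 28 with both. GAMMA CA3 (AT5G66510) had 28.1, 29.3 and 22.3 in mock, 23.4, 25.1 and 21.3 with valinomycin, 22.9, 26.7 and 21.9 with DC3000, and 23.6, 21.9 and 22 with both. Every treated group of both genes overlapped mock, and neither gene was called against mock. With median-of-ratios size factors GAMMA CA3 was called lower with valinomycin (-0.48, adjusted p = 0.000888) and with DC3000 (-0.36, adjusted p = 0.00552). GAMMA CA2 was called lower with valinomycin under that scaling (-0.30, adjusted p = 0.0116). GAMMA CA1 supplied 19.7% ± 0.131 (SD, n = 3) of the summed FPKM of the 3 genes in mock, 23.8% ± 0.981 after valinomycin, 34.0% ± 2.28 after DC3000 and 31.0% ± 0.425 after both.

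The like proteins of the same domain are encoded by GAMMA CAL1 and GAMMA CAL2. GAMMA CAL1 (AT5G63510), the highest of this domain in mock, had 38.5, 37.5 and 38.2 FPKM in mock, 33.2, 30.3 and 33.5 with valinomycin, 43.6, 42.8 and 38.3 with DC3000, and 30.2, 26 and 27.7 with both. It fell by 0.43 ± 0.12 with both treatments against mock (adjusted p = 0.00628) and by 0.56 ± 0.12 against DC3000 (adjusted p = 0.00395). GAMMA CAL2 (AT3G48680) had 31.3, 35.3 and 29.4 in mock, 45.7, 48.5 and 40 with valinomycin, 46.3, 48.8 and 40.4 with DC3000, and 42.8, 36.7 and 34 with both. Each single treatment lay above mock without overlap, by 0.47 ± 0.14 with valinomycin (adjusted p = 0.0117) and 0.48 ± 0.14 with DC3000 (adjusted p = 0.0105), both scaling-dependent.

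Complex II, succinate dehydrogenase, links the citric acid cycle to the chain. All of its 3 listed genes were called higher with both treatments, against 37.2% of all genes, SDH2-1 in a scaling-dependent way. SDH1-1 (AT5G66760), the flavoprotein that oxidises succinate, had 22.1, 25.4 and 17 FPKM in mock, 28.9, 30.2 and 27.6 with valinomycin, 36.8, 35.8 and 30.3 with DC3000, and 36.5, 46.2 and 33.1 with both. No treated library overlapped mock, and the difference was 0.43 ± 0.17 with valinomycin (adjusted p = 0.0416, scaling-dependent), 0.66 ± 0.17 with DC3000 (adjusted p = 0.00413) and 0.82 ± 0.17 with both (adjusted p = 0.000630). The summed FPKM of the 3 genes was 45.1 ± 8.93 (SD, n = 3) in mock, 59.5 ± 5.98 after valinomycin, 66.5 ± 3.41 after DC3000 and 76.7 ± 12.9 after both.

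The iron-sulphur subunit that passes the electrons on is encoded by SDH2-1 and SDH2-2 among the listed genes. SDH2-2 (AT5G40650) had 12.6, 15.9 and 11.8 FPKM in mock, 18.9, 15.9 and 14.1 with valinomycin, 20.4, 20.7 and 19.3 with DC3000, and 21.9, 24.6 and 21.7 with both. It rose by 0.56 ± 0.15 with DC3000 (adjusted p = 0.00593) and by 0.72 ± 0.15 with both (adjusted p = 0.000680). SDH2-1 (AT3G27380) had 9.67, 13.1 and 7.85 in mock, 16.8, 15.1 and 11.2 with valinomycin, 12, 11.1 and 13.1 with DC3000, and 14.6, 20.2 and 11.4 with both. Its groups overlapped mock in each treatment, and its call with both treatments (0.54 ± 0.22, adjusted p = 0.0423) was scaling-dependent. The SDH2-1 transcript shares 328 exon bases on the same strand with AT3G27360, which fell by 1.14 with valinomycin, and SDH2-2 shares 382 on the opposite strand with AT5G40660, which rose by 0.61, so reads of these loci could have been split between genes.

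**Figure D2:**
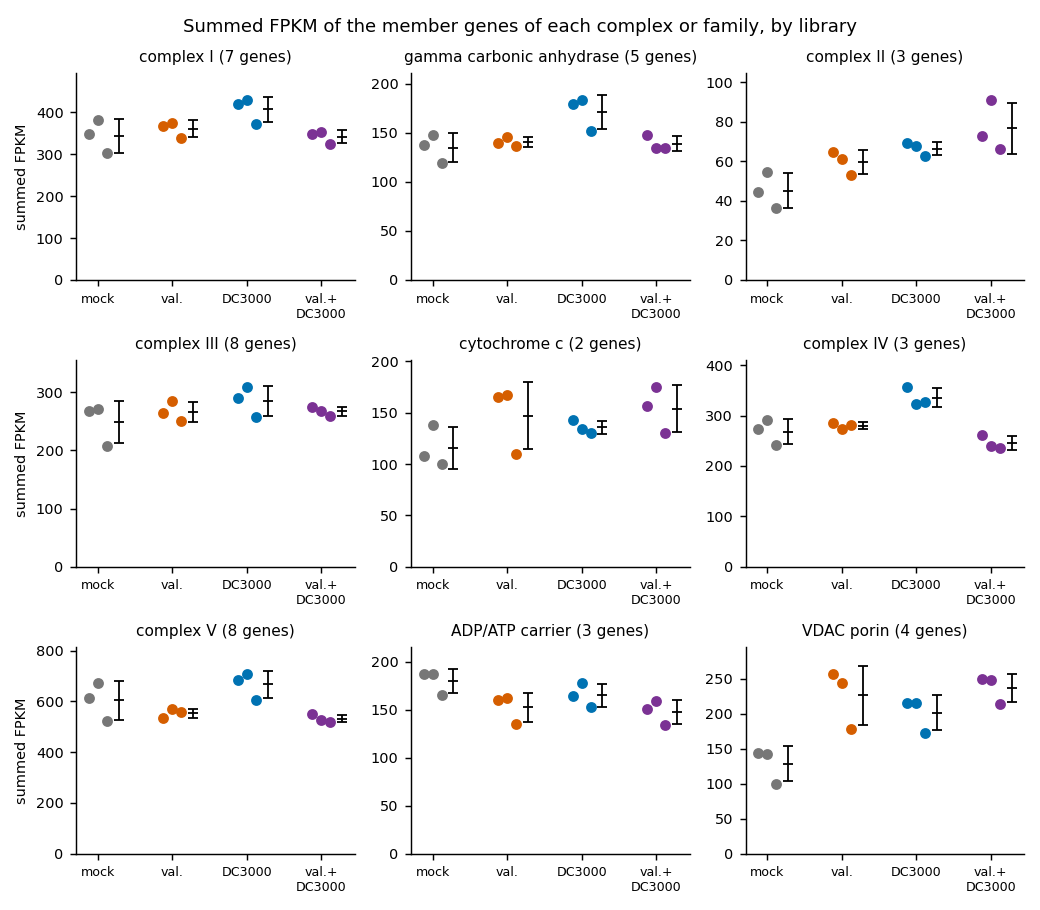
Summed FPKM (y axis, from 0) of the listed genes of each complex or family in each library, with the mean and SD of the 3 libraries of a group beside the points. The mean sums of complex II and the VDAC porins were higher in the treated groups, at 45.1 and 128.8 FPKM in mock and 76.7 and 237 with both treatments, with 1 valinomycin library within the mock range for complex II.

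Complex III passes electrons from ubiquinol to cytochrome c, and the 8 listed genes included both genes of QCR7, a small subunit on the matrix side. AT5G25450 had 0.398, 0.291 and 0.228 FPKM in mock, 12.8, 8.03 and 4.14 with valinomycin, 1.36, 1.4 and 1.7 with DC3000, and 8.49, 8.82 and 8.56 with both. Its groups formed separate ranges, mock below DC3000 and DC3000 below the valinomycin groups, and the 2 valinomycin groups overlapped. In FPKM the means were 27.2 times mock with valinomycin, 4.87 times with DC3000 and 28.2 times with both. The log2 difference was 2.72 ± 0.25 (SE) with valinomycin (adjusted p = 1.09e-06), 0.93 ± 0.25 with DC3000 (adjusted p = 0.00760) and 2.88 ± 0.25 with both (adjusted p = 3.19e-07). With a pseudocount of 0.1 in place of 1 the valinomycin difference was 4.25.

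The other QCR7 gene, AT4G32470, is the highest of complex III and moved little. It had 69.6, 70 and 57.9 FPKM in mock, 66.9, 68.1 and 69.8 with valinomycin, 86.7, 88.5 and 76.8 with DC3000, and 58.2, 60.9 and 53.5 with both. The DC3000 libraries lay above all others, by 0.35 ± 0.12 over mock (adjusted p = 0.0311, scaling-dependent), and the libraries with both treatments fell by 0.54 ± 0.13 against DC3000 (adjusted p = 0.00616). AT5G25450 supplied 0.458% ± 0.0967 (SD, n = 3) of the summed FPKM of the pair in mock, 10.7% ± 5.23 after valinomycin, 1.76% ± 0.352 after DC3000 and 13.1% ± 0.640 after both. The coding sequences of the pair are 74.8% identical. The exons of AT5G25450 share 575 bases on the opposite strand with AT5G03975 and AT5G25451, which were not analysed here, and no source used here says whether strand was used in counting.

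The Rieske iron-sulphur protein, which takes the first electron from ubiquinol, is encoded by adjacent genes on chromosome 5 whose coding sequences are 94.7% identical, so the split of reads between them is uncertain. AT5G13430 had 38.2, 38.5 and 31.9 FPKM in mock, 29.1, 31.7 and 27.1 with valinomycin, 29.1, 35.2 and 27.6 with DC3000, and 28.1, 26.9 and 28.1 with both. It fell by 0.37 ± 0.14 with both treatments (adjusted p = 0.0282). AT5G13440 had 32.2, 33.2 and 24.5 in mock, 30.5, 32.8 and 30.2 with valinomycin, 28.7, 37.8 and 27.8 with DC3000, and 32.3, 31.8 and 29.6 with both, and every treated group overlapped mock.

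Of the remaining complex III genes, AT1G51980, the alpha subunit of the mitochondrial processing peptidase, ranged from 21.1 to 50.4 FPKM over the 12 libraries. It rose by 0.76 ± 0.17 with both treatments (adjusted p = 0.00120) and was called with DC3000 (0.54 ± 0.17, adjusted p = 0.0142, scaling-dependent). MPPBETA, the beta subunit of that peptidase, ranged from 38.7 to 57.8 FPKM, and the cytochrome c1 genes AT3G27240 and AT5G40810 from 14.3 to 24.9 and from 17.4 to 31.7. None of these 3 was called in any comparison with mock.

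Cytochrome c, the small carrier between complexes III and IV, is encoded by a pair of genes. CYTC-1 (AT1G22840), the higher, had 78.9, 102 and 78.5 FPKM in mock, 127, 140 and 93.8 with valinomycin, 125, 112 and 116 with DC3000, and 136, 150 and 111 with both. It rose by 0.61 ± 0.17 with both treatments (adjusted p = 0.00653), and its calls with valinomycin (0.46, adjusted p = 0.0341) and DC3000 (0.44, adjusted p = 0.0424) were scaling-dependent. CYTC-2 (AT4G10040) had 29.3, 36.5 and 21.6 in mock, 38.3, 27 and 15.7 with valinomycin, 17.8, 21.7 and 14.7 with DC3000, and 20.6, 25 and 18.8 with both. It was not called in any comparison with mock, with a difference of -0.64 ± 0.27 with DC3000 (adjusted p = 0.0590), but under each of the 3 other scalings it was called lower with DC3000, by log2 differences of -0.86, -0.77 and -0.75 (adjusted p = 0.0137, 0.0252 and 0.0294). Its share of the summed FPKM of the pair was 25.0% ± 3.01 (SD, n = 3) in mock, 17.9% ± 4.65 after valinomycin, 13.4% ± 2.62 after DC3000 and 13.97% ± 0.734 after both.

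Complex IV, cytochrome c oxidase, was represented by 3 subunits. AT4G37830, subunit 6a and the highest of the 43 genes over the 12 libraries, had 208, 220 and 192 FPKM in mock, 224, 210 and 216 with valinomycin, 276, 249 and 253 with DC3000, and 193, 180 and 179 with both. The DC3000 libraries lay above all others, by 0.33 ± 0.11 over mock (adjusted p = 0.0294, scaling-dependent), and the libraries with both treatments fell by 0.49 ± 0.11 against DC3000 (adjusted p = 0.00628). COX6B (subunit 6b) ranged from 28.2 to 59.0 FPKM and was called with DC3000 (0.47 ± 0.17, adjusted p = 0.0296, scaling-dependent), and AT3G15640 (subunit 5b) ranged from 16.6 to 25.4 FPKM and was not called against mock.

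Complex V was represented by 8 subunits of the ATP synthase. With valinomycin 2 were called lower and with both treatments 3, against 13.8% and 23.1% of all genes. None was called higher in these comparisons, against 38.5% and 37.2%. The catalytic beta subunit is encoded by 3 adjacent genes on chromosome 5 whose coding sequences are 91.0% to 94.4% identical, so the split of reads among them is uncertain. AT5G08690 had 66.8, 71.8 and 56.4 FPKM in mock, 44.8, 44.7 and 47 with valinomycin, 50.2, 50.4 and 47.8 with DC3000, and 44.2, 43.9 and 43.2 with both. Every treated library lay below every mock library, and the gene fell by 0.50 ± 0.12 with valinomycin (adjusted p = 0.00350), 0.38 ± 0.12 with DC3000 (adjusted p = 0.0182) and 0.55 ± 0.12 with both (adjusted p = 0.00125).

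The other beta genes were not called against mock. AT5G08670 had 81.3, 82.3 and 65.2 FPKM in mock, 80.8, 85.7 and 76 with valinomycin, 80.1, 89.1 and 78.5 with DC3000, and 84.6, 82.5 and 80.8 with both. AT5G08680 had 30.2, 31.5 and 25.6 in mock, 26.2, 29.1 and 28.1 with valinomycin, 30.2, 32.6 and 28.3 with DC3000, and 24.7, 25.8 and 21.2 with both. With median-of-ratios size factors AT5G08680 was called lower with valinomycin (-0.37, adjusted p = 0.00410) and with both (-0.46, adjusted p = 0.000616), and AT5G08670 with valinomycin (-0.22, adjusted p = 0.0470). The share of AT5G08690 in the sum of the 3 was 38.2% ± 0.622 (SD, n = 3) in mock and 29.6% ± 1.55 with valinomycin, 30.5% ± 1.07 with DC3000 and 29.1% ± 0.536 with both.

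ATP5 (AT5G13450), the OSCP subunit that joins the stator stalk to the catalytic head, had 113, 125 and 102 FPKM in mock, 78, 85.1 and 98.1 with valinomycin, 112, 115 and 111 with DC3000, and 81.2, 72.8 and 75.3 with both. The valinomycin libraries, with or without the bacterium, lay below all mock and DC3000 libraries. It fell by 0.38 ± 0.13 with valinomycin (adjusted p = 0.0228) and by 0.56 ± 0.13 with both (adjusted p = 0.00168), and its difference with DC3000 was -0.01 ± 0.13 (adjusted p = 0.974). AT5G47030, the delta subunit of the head, had 77.7, 71.6 and 63.1 in mock, 65.4, 67.8 and 67.5 with valinomycin, 73, 77.6 and 58.6 with DC3000, and 51.7, 52.5 and 46 with both. Only the libraries with both treatments lay below mock without overlap, by 0.49 ± 0.14 (adjusted p = 0.00659).

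ATPQ (AT3G52300), subunit d of the stator stalk and the highest of complex V, had 128, 140 and 107 FPKM in mock, 128, 129 and 122 with valinomycin, 172, 177 and 145 with DC3000, and 135, 128 and 125 with both. AT1G51650, the epsilon subunit, had 61.7, 92.8 and 63.3 in mock, 61.8, 72.1 and 68.5 with valinomycin, 114, 106 and 83.5 with DC3000, and 82, 80.3 and 80.7 with both. The DC3000 libraries were the highest group of both genes, overlapping mock for AT1G51650, and the calls against mock (0.40, adjusted p = 0.0223, and 0.48, adjusted p = 0.0250) were scaling-dependent. ATP3, the gamma subunit that turns inside the head, ranged from 40.7 to 60.4 FPKM and was not called against mock.

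The ADP/ATP carriers of the inner membrane are encoded by 3 listed genes, of which AAC2 and AAC3 rose and AAC1 fell with valinomycin and with both treatments. AAC1 (AT3G08580) had 184, 183 and 163 FPKM in mock, 109, 116 and 114 with valinomycin, 155, 168 and 141 with DC3000, and 114, 104 and 102 with both. All 6 valinomycin libraries lay below all 6 others. AAC1 fell by 0.64 ± 0.12 with valinomycin (adjusted p = 0.000517) and by 0.72 ± 0.12 with both (adjusted p = 0.000130), and its difference with DC3000 was -0.19 ± 0.12 (adjusted p = 0.196).

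AAC2 (AT5G13490) had 2.3, 2.98 and 2.11 FPKM in mock, 39.2, 34.5 and 16.2 with valinomycin, 7.92, 8.3 and 10.6 with DC3000, and 29.7, 43.5 and 26.5 with both. The DC3000 libraries lay between mock and the valinomycin libraries without overlap. In FPKM the means were 12.2 times mock with valinomycin, 3.64 times with DC3000 and 13.5 times with both. The log2 difference was 3.08 ± 0.27 with valinomycin (adjusted p = 6.14e-07), 1.52 ± 0.27 with DC3000 (adjusted p = 0.000336) and 3.28 ± 0.27 with both (adjusted p = 1.6e-07).

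AAC3 (AT4G28390) had 1.07, 1.17 and 0.578 FPKM in mock, 12.5, 11.9 and 5.13 with valinomycin, 1.3, 1.43 and 1.62 with DC3000, and 6.74, 11.3 and 5.73 with both. The valinomycin libraries lay above all those without it, at 10.5 times mock alone and 8.44 times with the bacterium, by the FPKM means. The log2 difference was 2.41 ± 0.28 with valinomycin (adjusted p = 8.6e-06) and 2.17 ± 0.28 with both (adjusted p = 1.33e-05), and 0.35 ± 0.28 with DC3000 (adjusted p = 0.321).

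AAC2 and AAC3 together supplied 1.88% ± 0.307 (SD, n = 3) of the summed carrier FPKM in mock, 25.5% ± 8.61 after valinomycin, 6.37% ± 1.43 after DC3000 and 27.5% ± 5.96 after both. The sum of the 3 genes was 180.2 ± 12.2 FPKM in mock, 152.8 ± 15.4 after valinomycin, 165.1 ± 12.2 after DC3000 and 148.0 ± 12.7 after both.

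**Figure D3:**
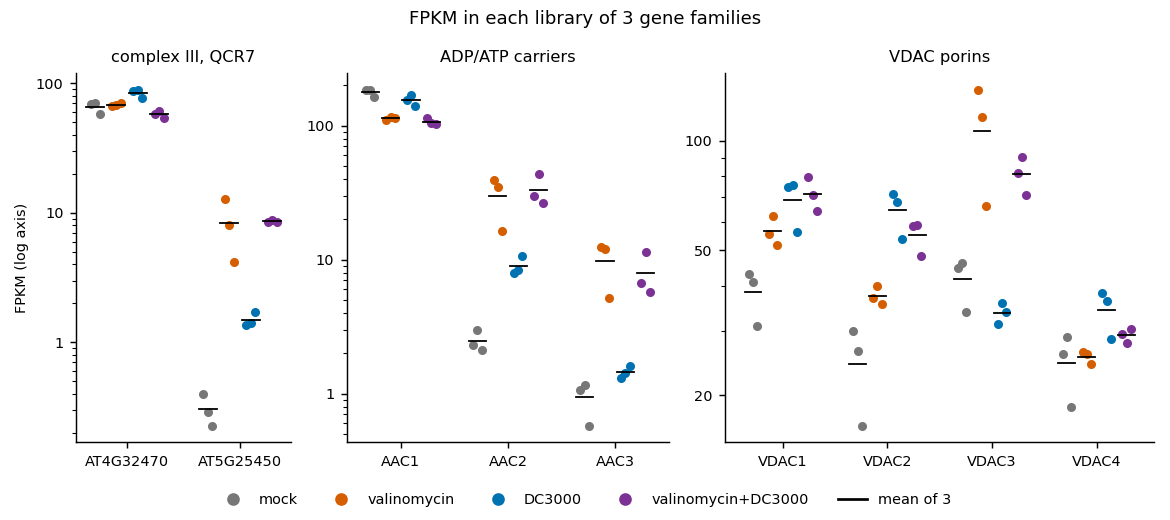
FPKM of each library (points, log axis) and group mean (line) for the genes of QCR7, the ADP/ATP carriers and the VDAC porins, coloured by group. AT5G25450, AAC2 and AAC3 start at mock means of 0.306, 2.46 and 0.939 FPKM and reach 8.32, 30.0 and 9.85 with valinomycin, AAC1 moves from 176.8 to 113.0, and valinomycin replicate 3 has the lowest value of its group for the 3 risers and VDAC3.

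Of the 4 VDAC porins of the outer membrane, 3 were called higher in each comparison with mock, where 38.5%, 31.6% and 37.2% of all genes were with valinomycin, DC3000 and both, and VDAC1 with valinomycin and VDAC4 with DC3000 were scaling-dependent. VDAC3 (AT5G15090) had 44.8, 46.1 and 33.9 FPKM in mock, 138, 116 and 66.3 with valinomycin, 31.4, 35.9 and 33.8 with DC3000, and 81.6, 90.4 and 70.8 with both. The valinomycin libraries lay above all those without it, by 1.29 ± 0.22 over mock alone (adjusted p = 0.000241) and by 0.95 ± 0.22 over mock with the bacterium (adjusted p = 0.00181). Its difference with DC3000 was -0.29 ± 0.22 (adjusted p = 0.296).

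VDAC2 (AT5G67500) had 30.1, 26.4 and 16.5 FPKM in mock, 37, 39.9 and 35.7 with valinomycin, 71.6, 67.8 and 53.8 with DC3000, and 58.2, 58.6 and 48.4 with both. The DC3000 libraries lay above the valinomycin libraries, and both lay above mock without overlap. VDAC2 rose by 0.64 ± 0.19 with valinomycin (adjusted p = 0.0113), 1.40 ± 0.19 with DC3000 (adjusted p = 3.15e-05) and 1.18 ± 0.19 with both (adjusted p = 9.65e-05).

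VDAC1 (AT3G01280) had 43.2, 40.9 and 31 FPKM in mock, 55.5, 62 and 51.8 with valinomycin, 74.5, 75.8 and 56.3 with DC3000, and 79.7, 71.1 and 64.1 with both. It rose by 0.83 ± 0.16 with DC3000 (adjusted p = 0.000732) and 0.89 ± 0.16 with both (adjusted p = 0.000272), and its call with valinomycin (0.55, adjusted p = 0.0105) was scaling-dependent. Its exons share 387 bases on the opposite strand with AT3G01290, and reads of the 2 genes cannot be told apart without strand. AT3G01290 rose by 2.45 with valinomycin and 2.21 with both, and its difference with DC3000 was -0.94. VDAC4 (AT5G57490) had 25.9, 28.9 and 18.6 in mock, 26.3, 25.9 and 24.4 with valinomycin, 38.1, 36.4 and 28.5 with DC3000, and 29.5, 27.9 and 30.5 with both, and its call with DC3000 (0.48, adjusted p = 0.0235) was scaling-dependent.

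VDAC3 supplied 32.5% ± 1.39 (SD, n = 3) of the summed porin FPKM in mock, 46.2% ± 8.37 after valinomycin, 16.9% ± 2.53 after DC3000 and 34.1% ± 2.04 after both. VDAC2 supplied 18.7% ± 2.19, 16.9% ± 2.86, 31.9% ± 1.10 and 23.2% ± 0.509 in the same order of groups. The porin sum was 128.8 ± 24.9 FPKM in mock, 226.3 ± 42.3 after valinomycin, 201.3 ± 25.0 after DC3000 and 237.0 ± 20.01 after both.

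**Figure D4:**
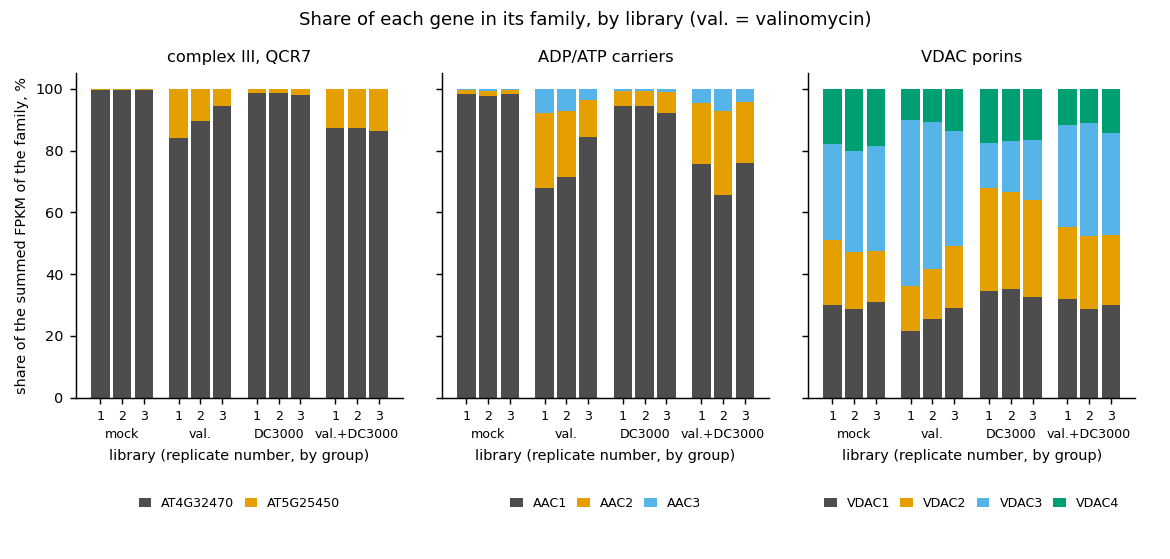
Share of each gene in the summed FPKM of its family (y axis, %) for each library, with replicate numbers under the bars. The AAC2 and AAC3 part grows from 1.88% in mock to 25.5% with valinomycin, and the VDAC3 part is largest with valinomycin and smallest with DC3000.

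Ratios of FPKM + 1 between genes of a family, in which library scaling cancels except for the pseudocount and so least well for low genes, were compared across the 4 groups with an exact permutation test of the log2 ratio over the 15400 arrangements of the 12 libraries. Of 22 pairs, 19 differed among groups at a p adjusted over the pairs under 0.05, also with a pseudocount of 0.1, and pairs of unrelated genes were not examined. On this scale the log2 ratio of AAC1 to AAC2 was 5.69 in mock, 1.97 after valinomycin, 3.97 after DC3000 and 1.69 after both (exact permutation p = 0.000390, adjusted 0.00171). The log2 ratio of AT4G32470 to AT5G25450 was 5.67, 3.01, 5.09 and 2.60 in the same order (exact permutation p = 0.000584, adjusted 0.00186). GAMMA CA1 to GAMMA CA2 and GAMMA CA1 to GAMMA CA3 reached the smallest p the arrangements can give, 6.49e-05 (adjusted 0.000714, exact permutation test). The 3 pairs that did not pass were the TYKY genes of complex I (exact permutation p = 0.172), SDH2-1 and SDH2-2 (0.0571) and the cytochrome c1 genes (0.126).

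The valinomycin difference was measured in separate sets of libraries, without the bacterium (valinomycin against mock) and with it (both treatments against DC3000). In the second comparison 4 members were called higher, against 14.1% of all genes, and 9 lower, against 13.5%. The 4 were AT5G25450 (1.95 ± 0.25, adjusted p = 0.000122), AAC3 (1.82 ± 0.28, adjusted p = 0.000425), AAC2 (1.76 ± 0.27, adjusted p = 0.000408) and VDAC3 (1.24 ± 0.22, adjusted p = 0.00113), and these calls held under all 19 alternatives run. Over all genes 14% were higher and 8.84% lower under all 4 scalings. The 5 lower calls of members that held were GAMMA CAL1, ATP5, AT4G32470, AAC1 and AT4G37830, and the 9 became 5 without DC3000 replicate 1 or 2 or without replicate 3 of both treatments. AAC1 fell by 0.53 ± 0.12 in this comparison (adjusted p = 0.00544). Across the 43 genes the 2 differences had a Pearson r of 0.908 and a Spearman rho of 0.58, and 28 of 43 had the same sign. Without the 4 genes r was 0.437, and genes of a library share its scaling, so these values describe the libraries only.

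**Figure D5:**
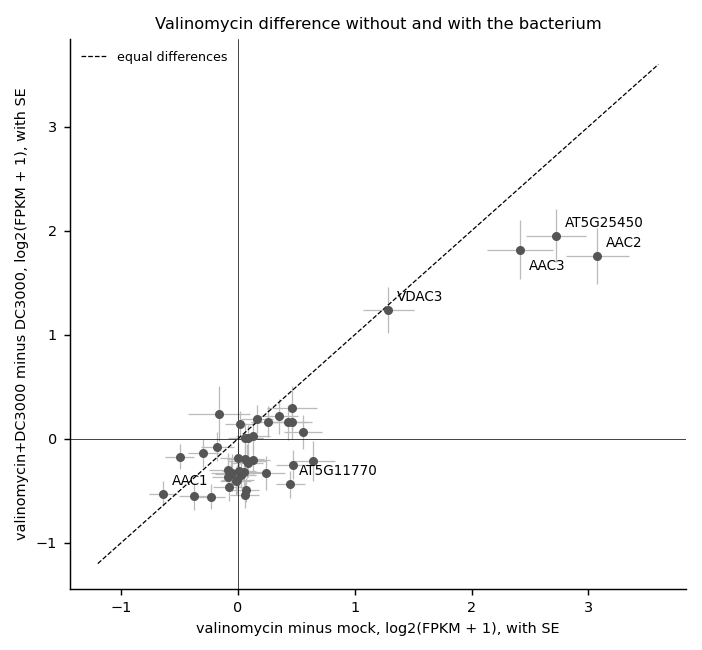
Valinomycin difference of each of the 43 genes without the bacterium (x axis) and with it (y axis) on the log2(FPKM + 1) scale, with SE bars and a dashed line of equal differences. AT5G25450, AAC2, AAC3 and VDAC3 lie apart from the others at 1.24 or more on both axes, and AAC1 lies below 0 on both.

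Valinomycin and DC3000 were also compared directly. In valinomycin against DC3000, 4 members were called higher, against 17.9% of all genes, and 7 lower, against 8.18%. AAC3 was higher by 2.06 ± 0.28 (adjusted p = 6.49e-05), AT5G25450 by 1.80 ± 0.25 (adjusted p = 9.1e-05), VDAC3 by 1.57 ± 0.22 (adjusted p = 7.83e-05) and AAC2 by 1.56 ± 0.27 (adjusted p = 0.000527). GAMMA CA1 was lower by a log2 difference of -0.88 ± 0.16 (adjusted p = 0.000878), VDAC2 of -0.75 ± 0.19 (adjusted p = 0.00819) and AT1G51650 of -0.57 ± 0.17 (adjusted p = 0.0196), and these were the 3 lower calls that held under all 4 scalings, as did 6.23% of all genes, with 16.8% higher. The 7 lower calls became 2 without DC3000 replicate 2, 3 without DC3000 replicate 1 or valinomycin replicate 1, 4 without mock replicate 1, valinomycin replicate 2 or any library of both treatments, and 11 without mock replicate 3.

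Adding the bacterium to valinomycin gave few calls among the members. Within 0.5 on the log2 scale lay 41 of 43 members, against 79% of all genes. In both treatments against valinomycin, 2 were called higher, against 4.72% of all genes, and 0 lower, against 10.4%. The 2 were GAMMA CA1 (0.55 ± 0.16, adjusted p = 0.0345) and SDH2-2 (0.46 ± 0.15, adjusted p = 0.0468), both scaling-dependent, where 4.24% of all genes were higher and 7.93% lower under all 4 scalings. The 2 became 0 without any single library of both treatments or valinomycin replicate 2 or 3, 1 without mock replicate 1, valinomycin replicate 1 or any DC3000 library, and 4 without mock replicate 3. The 0 lower calls became 2 without mock replicate 3 or valinomycin replicate 3 and 1 without DC3000 replicate 3, and without valinomycin replicate 3 VDAC3 was lower by a log2 difference of -0.65 (adjusted p = 0.0191). AT5G11770, AT3G15640 and AT5G47030 were lower only at an unadjusted p under 0.05 in limma. Uncalled members also lay higher, with differences of 0.54 for VDAC2, 0.41 for AT1G51980 and 0.39 for SDH1-1. These are not calls, and the share of all genes at that limit was not counted.

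The lowest valinomycin library of the 4 genes was replicate 3. Without it the valinomycin difference from mock was 3.10 for AT5G25450, 3.46 for AAC2, 2.78 for AAC3 and 1.60 for VDAC3, and the members called against mock were 11 higher and 3 lower.

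The interaction asks whether the valinomycin difference depended on the bacterium. None of the members was called with a positive interaction (0, against 5.25% of all genes) and 6 with a negative one, against 19.4%. The median interaction was -0.28 over the members and -0.29 over all genes. With median-of-ratios size factors these medians were 0.05 and -0.003. Only AT5G11770, described with complex I, was called under all 4 scalings and all 19 alternatives, and 5.24% and 11.4% of all genes were positive and negative under all 4 scalings. AAC2 had an interaction of -1.32 ± 0.38 (adjusted p = 0.0226), since its valinomycin difference was 3.08 without DC3000 and 1.76 with it, and VDAC2 had -0.86 ± 0.27 (adjusted p = 0.0317), GAMMA CAL2 -0.72 ± 0.20 (adjusted p = 0.0172), AT4G32470 -0.59 ± 0.18 (adjusted p = 0.0250) and AT4G37830 -0.56 ± 0.16 (adjusted p = 0.0223). The 6 became 3 without DC3000 replicate 1 or 2, 2 without valinomycin replicate 2 and 1 without replicate 3 of both treatments. Without valinomycin replicate 3 they became 8, with AT5G25450 (-1.14, adjusted p = 0.00404) and AAC3 (-0.96, adjusted p = 0.0307) among them.

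Other genes of the pathway were taken from a list of 72, of which 68 were in the table and tested. With valinomycin 11 were called higher and 8 lower, with DC3000 15 and 1, and with both 15 and 15. Over all genes the shares called higher were 38.5%, 31.6% and 37.2%, and those called lower 13.8%, 17.2% and 23.1%. In both treatments against DC3000 5 of the 68 were called higher and 25 lower, against 14.1% and 13.5% of all genes. The 25 included 16 other complex I and 6 other complex V subunits. In valinomycin against DC3000 3 were higher and 15 lower, against 17.9% and 8.18%. The 27 other complex I subunits had 1 higher and 5 lower calls with valinomycin, 2 and 1 with DC3000, and 1 and 10 with both. Among them mtACP3 (AT5G47630), a mitochondrial acyl carrier protein, had 20.1, 24.02 and 14.2 FPKM in mock, 11.2, 15.6 and 20.2 with valinomycin, 11.1, 12.6 and 11.5 with DC3000, and 9.15, 7.46 and 8.58 with both treatments, a fall of 1.09 ± 0.21 (adjusted p = 0.000385). The 7 other complex II subunits had 2, 3 and 3 higher calls with valinomycin, DC3000 and both, and 0, 0 and 1 lower calls. The 7 other complex V subunits had 3 lower calls with valinomycin and 3 with both, and 2 higher calls with DC3000. The 7 other complex III subunits had 1 higher call with DC3000 and 1 lower with both, the 7 other complex IV subunits had 2 higher calls with DC3000 and 2 with both, and the 4 phosphate and other nucleotide carriers had no call against mock.

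The complex IV assembly factors, which deliver copper and haem to the enzyme, were counted apart from the subunits. Of 9 genes, 8 were called higher with valinomycin, 5 with DC3000 and 9 with both, against 38.5%, 31.6% and 37.2% of all genes, and none lower. Their median differences were 0.85, 0.54 and 0.99, against 0.27, 0.18 and 0.17 over all genes, and no test of the list was made. COX19-1 (AT1G66590), a factor known from yeast to act in complex IV assembly, had 4.55, 5.81 and 4.22 FPKM in mock, 34.4, 32.7 and 15.5 with valinomycin, 16.1, 11.1 and 12.7 with DC3000, and 38.6, 43.4 and 31.8 with both. Its groups stood in the order mock, DC3000 and both treatments without overlap, and it rose by 2.21 ± 0.25 with valinomycin, 1.28 ± 0.25 with DC3000 and 2.73 ± 0.25 with both (adjusted p = 6.11e-06, 0.000687 and 4.32e-07). COX19-2 (AT1G69750) rose by 2.18, 1.16 and 2.62, but 53.0% of the COX19-1 transcript matches it at 99.5% identity, so reads of this pair cannot be assigned with certainty. COX17 (AT3G15352), a copper chaperone, rose by 1.17 ± 0.19 with valinomycin and 1.77 ± 0.19 with both, and 61.9% of its transcript is identical to AT3G03095. Its relative AT1G53030 rose by 1.01 ± 0.22 with both treatments (adjusted p = 0.00124). Both genes were also above mock with DC3000 alone. COX17 had 3.62, 5.13 and 4.18 FPKM in mock and 10.4, 9.13 and 6.64 with DC3000. AT1G53030 had 12.3, 21.6 and 13.05 in mock, 21.1, 25.5 and 18.2 with valinomycin, and 38.4, 31.1 and 22.2 with DC3000.

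The position of the members in the genome was uneven. Of the 43 genes 21, or 48.8%, lie on chromosome 5, which holds 23.2% of the nuclear genes in the table, and these include the 3 adjacent beta subunit genes and the run of AT5G13430, AT5G13440 and ATP5. Exons of 4 members overlap another gene on the same strand and those of 12 on the opposite strand.

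Promoters were described by short motifs, since the strong risers and their family partners differ in expression. Site II elements, TGGGCC or TGGGCT on either strand, are known from promoters of plant genes for mitochondrial proteins, and the mitochondrial dysfunction motif, searched in its published form on either strand, is known as a target of membrane-bound NAC factors. Within 250 bases before the gene start, 20 of 43 members (46.5%) had a site II element, against 19.2% of 27444 protein-coding genes, and within 1000 bases 28 (65.1%) had it, against 38.7%. The mitochondrial dysfunction motif was found in 1 member (2.3%) within 250 bases, against 1.2% of genes, and in 3 (7.0%) within 1000 bases, against 4.4%, and these 3 were CI51, MPPBETA and AT5G47030. By group, site II was present within 250 bases in 6 of 8 complex III genes, 2 of 2 cytochrome c genes, 4 of 8 complex V genes, 2 of 7 complex I subunits, 2 of 5 gamma carbonic anhydrases, 1 of 3 complex IV genes, 1 of 3 carriers, 2 of 4 porins and 0 of 3 complex II genes.

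The 100 bases before the start of the 4 genes that rose with valinomycin, and of the more abundant QCR7 and carrier genes for comparison, are shown 5′ to 3′ on the strand of the gene, from the RefSeq genome TAIR10.1, with site II elements in capitals. The genes themselves lie at chr4:15669219-15671249 (AT4G32470), chr5:8856917-8858476 (AT5G25450), chr3:2605435-2607895 (AAC1), chr5:4335272-4337730 (AAC2), chr4:14041288-14043347 (AAC3) and chr5:4888964-4891603 (VDAC3). The windows are chr4:15671250-15671349 (minus) for AT4G32470, chr5:8856817-8856916 (plus) for AT5G25450, chr3:2607896-2607995 (minus) for AAC1, chr5:4335172-4335271 (plus) for AAC2, chr4:14043348-14043447 (minus) for AAC3 and chr5:4891604-4891703 (minus) for VDAC3.
AT4G32470: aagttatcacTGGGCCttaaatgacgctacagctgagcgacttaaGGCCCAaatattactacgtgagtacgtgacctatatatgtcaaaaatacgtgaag
AT5G25450: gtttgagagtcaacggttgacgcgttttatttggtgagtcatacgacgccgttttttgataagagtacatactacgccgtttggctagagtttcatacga
AAC1: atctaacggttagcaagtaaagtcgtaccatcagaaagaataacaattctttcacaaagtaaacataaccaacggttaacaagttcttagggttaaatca
AAC2: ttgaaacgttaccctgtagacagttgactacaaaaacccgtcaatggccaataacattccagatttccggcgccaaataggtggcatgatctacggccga
AAC3: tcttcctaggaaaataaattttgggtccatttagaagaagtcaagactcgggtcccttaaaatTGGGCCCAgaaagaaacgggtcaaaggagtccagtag
VDAC3: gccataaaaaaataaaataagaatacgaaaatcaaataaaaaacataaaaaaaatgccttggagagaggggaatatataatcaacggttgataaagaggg
AT4G32470 has a site II element on each strand in this window and AAC3 has overlapping copies on both strands, while AT5G25450, AAC1, AAC2 and VDAC3 have none of these letters in it. A match of letters describes the sequence and is not a measured binding site.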

How the data were processed

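The authors deposited 1 table of 20233 genes by 12 libraries, from total RNA (RNeasy Plant Mini, CORALL total RNA-seq kit, per the labels' protocols) on TAIR10 (per the submitters' processing notes). Its values, taken as FPKM from the deposited numbers, hold no zeros and no counts. For aligner, quantifier, use of strand and depth the sources used here give nothing, and whole fragments could not be recovered, so precision rests on the 3 libraries per group. The 43 members and all lists were chosen with earlier results of these data known.

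The 18048 genes averaging 1 FPKM or more were fitted as log2(FPKM + 1) with limma 3.58.1 in R 4.3.3 (group means, trend, 8 residual degrees of freedom). P-values were adjusted by Benjamini-Hochberg over all genes tested in each of 7 comparisons, and the code was tested on simulated data. Genes with per-library values were the 4 largest calls each way in each comparison, families whose members differed in calls and the highest gene of each complex. Other pathway genes were named if called with a log2 difference of at least 1. Families were compared by an exact permutation test. Alternatives were 3 other scalings, a pseudocount of 0.1, no filter, no trend, a replicate block and leaving out each library. Sequences, overlaps and copies came from RefSeq TAIR10.1 with Biopython 1.88 and blastn 2.17.0.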

Additional observations from a re-analysis of the deposited data

Results flagged for a closer look

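For 6 genes the valinomycin difference with DC3000 differed from that without it by the interaction term of the limma fit, on the log2(FPKM + 1) scale. All 6 were negative, where 19.4% of all genes were called negative and the median over all genes was -0.29. The interaction was -0.89 for AT5G11770, -0.72 for GAMMA CAL2, -0.59 for AT4G32470, -0.56 for AT4G37830, -1.32 for AAC2 and -0.86 for VDAC2. Of these, AT5G11770 was called under all 19 alternatives and the other 5 were lost under at least 1.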

How the results depend on the processing

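Counts of called members that moved by over 1.5 times were, with median-of-ratios size factors, 5 higher and 20 lower for valinomycin against mock, 11 and 5 for DC3000 against mock, 15 lower for both against mock, 15 lower for both against DC3000, 7 higher for both against valinomycin, 19 lower for valinomycin against DC3000, and 6 positive and 1 negative interactions. With nuclear genes scaled to one total they were 8 higher and 2 lower for DC3000 against mock, 5 lower for both against DC3000, 0 higher for both against valinomycin, 3 lower for valinomycin against DC3000 and 2 negative interactions. With nuclear protein-coding genes scaled to one total, chosen after seeing the data, they were 10 and 2, 5 lower, 4 lower for valinomycin against DC3000 and 3 negative interactions. Without the trend 1 was higher for both against valinomycin and 4 lower for valinomycin against DC3000.

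With median-of-ratios size factors 7 differences between valinomycin and mock turned negative with a call: -0.29 for CI51, -0.30 for GAMMA CA2, -0.25 for AT4G32470, -0.26 for COX6B, -0.22 for AT5G08670, -0.30 for ATP3 and -0.29 for ATPQ. The cause was not tested. Of the other comparisons of single members with an alternative, 5374 stayed on the same side of the threshold, where uncalled differences could change sign, 229 lost the call and 109 gained it.

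Leaving out each library gave 7 to 13 higher and 2 to 4 lower for valinomycin against mock, 8 to 20 and 0 to 2 for DC3000 against mock, 11 to 13 and 5 to 10 for both against mock, 4 to 4 and 5 to 12 for both against DC3000, 0 to 4 and 0 to 2 for both against valinomycin, 4 to 5 and 2 to 11 for valinomycin against DC3000, 0 to 0 positive and 1 to 8 negative interactions, and 19 to 20 family pairs.

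Deviations of same-numbered libraries of different groups had correlations from -0.242 to 0.439 (median -0.036, 3 of 18 over 0.1). Those of different-numbered libraries ran from -0.493 to 0.488 (median 0.023, 8 of 36 over 0.1), so the numbers were not taken as pairs. Some libraries did deviate together, as valinomycin replicate 1 with replicate 2 of both treatments (0.488). A replicate block gave 11 higher for valinomycin against mock, 2 lower for DC3000 against mock, 12 lower for both against DC3000, and 4 higher and 2 lower for both against valinomycin. Depth is not given, so values under 1 FPKM, as for AT5G25450 in mock, carry an unknown counting error.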
